A study of Rickenella mellea with 14 samples.

Results

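The stipe of the mature mushroom was compared with the young fruiting body in the moss-dwelling mushroom Rickenella mellea, using 5 of the 14 libraries of the series. The members were chosen by their labels, as the 3 young fruiting body libraries (replicates 1, 2 and 3) and the 2 mature stipe libraries (replicates 1 and 4). Both groups were collected in the field, carry the strain label SZMC22713 and were sequenced on the same flow cell. The primordium and cap libraries also came from the field, which makes 11 field libraries, while the mycelium was grown in culture. Mycelium therefore differs from the other groups by culture as well as by stage. Young fruiting bodies were 5 to 15 mm tall with a cap 1 to 2 mm wide and were not divided into parts, while mature fruiting bodies were 20 to 32 mm tall with an expanded cap. The primordium libraries, used as background, were not of one size. Primordium 2 was labelled 1 mm tall, and primordia 1 and 3 were labelled 2 to 3 mm. Differences between primordium 2 and the others may therefore be of stage. Whether a gene differs by part of the mushroom or by its age therefore cannot be told apart here. The labels do not say how many individuals a library holds, so p-values speak only of the spread among libraries. Polyadenylated RNA was sequenced, and the tissue labels could not be checked against marker genes because no table used here pairs gene models with product names. Gene models are therefore given by number, with no function and no sequence.

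The stipe is the stalk that lifts the cap above the substrate. In well-studied mushrooms its late growth comes largely from cells that lengthen, with remodelling of a wall built of chitin and glucans. The cap carries the hymenium, the layer of basidia in which nuclei fuse, meiosis takes place and spores form. A young fruiting body holds both parts before they are fully expanded. In bulk tissue, fewer cells of a type and less RNA per cell cannot be told apart.

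Counted in units of 1e6 reads, libraries held 32.9 to 44.6 for the young fruiting body group, 35.3 for stipe replicate 1 and 21.5 for stipe replicate 4. Gene levels are given as CPM, read counts scaled to 1e6 reads per library, after TMM, a correction for differences in library composition. Across genes, the Spearman correlation was 0.972 between the stipe libraries, 0.932 to 0.952 between young fruiting bodies and 0.896 to 0.937 between the groups. No replicate pair agreed within counting noise, the lowest chi-square per degree of freedom being 172.2 between the stipes.

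More genes were called lower than higher in the stipe. Of 15559 genes tested, 853 fell (5.48%) and 251 rose (1.61%), at an edgeR adjusted p under 0.05 and at least a 2-fold change. Regardless of calls, 7783 genes had a log2 change above 0 and 7718 below 0, with quartiles of -0.62 and 0.61. Scaled by library total these numbers were 8831 and 6670. The excess of falls is therefore one of calls and not of all genes. The median fallen gene was 2.99-fold lower, and the median risen gene 3.07-fold higher. Among fallen genes, 636 changed 2-fold to 4-fold, 144 from 4-fold to 8-fold and 73 by 8-fold or more. Among risen genes these classes held 184, 46 and 21. The fallen genes had a median mean level of 88.5 CPM in the young fruiting body and 31.7 CPM in the stipe. Over all genes tested these medians were 15.0 and 14.5 CPM. The risen genes had a median level of 21.1 CPM in the young fruiting body and 64.1 CPM in the stipe. Libraries of the groups did not overlap for 853 of the fallen and 248 of the risen genes, where 49.5% of all tested genes did not overlap; the lists were chosen on these same libraries, so nothing is read from that count.

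**Figure D1:**
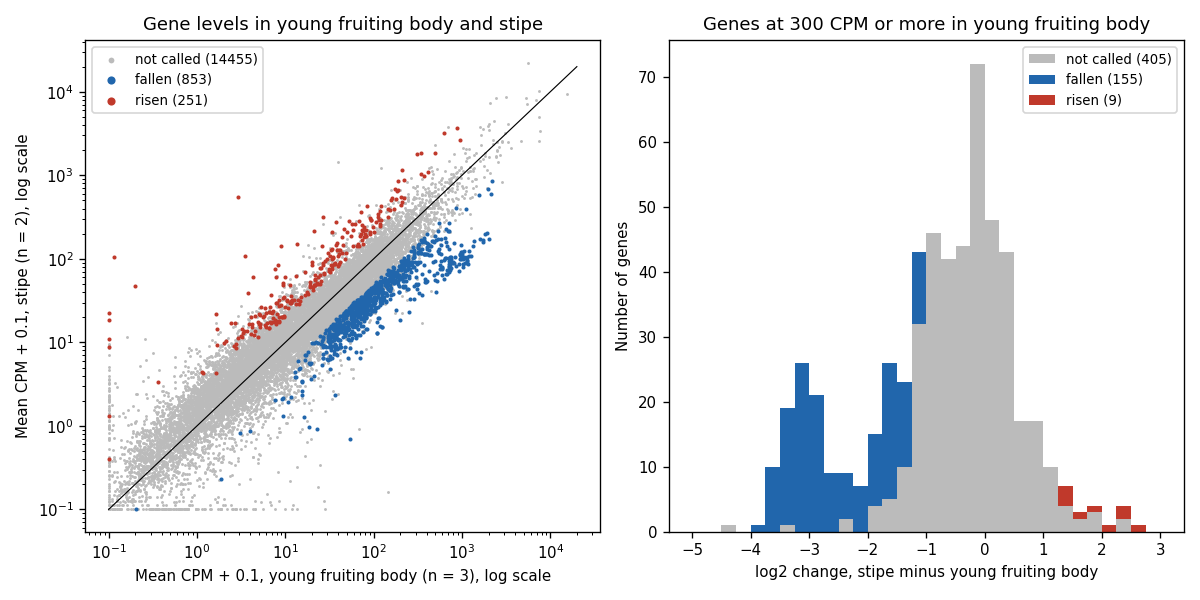
Left, mean level of each tested gene in young fruiting body (n = 3) and stipe (n = 2), in CPM plus 0.1 on log axes, with the 853 fallen and 251 risen genes coloured and equal levels on the line. Right, log2 change of the 569 genes at 300 CPM or more in the young fruiting body. Of the 155 fallen genes, 99 fell 4-fold or more, with a median of -3.05. The median of all 569 genes was -0.56, with quartiles of -1.51 and 0.06.

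Among the fallen genes was a group of abundant, short genes that were together about 8-fold lower in the stipe. At 300 CPM or more in the young fruiting body there were 569 genes, of which 155 fell and 9 rose, beside 5.48% and 1.61% of all tested genes. Choosing genes by their level in the young fruiting body favours falls over rises, so nothing is read from the excess of falls. Between log2 changes of -4 and -3 there were 55 fallen genes, between -3 and -2 there were 44, and between -2 and -1 there were 56. In finer steps there were 11 from -4 to -3.5, 44 to -3, 30 to -2.5, 14 to -2, 32 to -1.5 and 24 to -1. The dip of 14 genes lay from -2.5 to -2, so a split at 4-fold puts it with the larger falls. Genes that were not called are left out, so these counts depend on the call. The 99 genes that fell 4-fold or more had a median log2 change of -3.05, an 8.26-fold drop, with quartiles of -3.29 and -2.78. The level of 300 CPM and the split at 4-fold were chosen after the values were seen, so these counts are a description of the same contrast and carry no test of the group.

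The 99 genes were chosen for high young fruiting body and low stipe levels, so their values in these libraries show the size of the change only. Their median level was 851, 690 and 635 CPM in young fruiting bodies 1, 2 and 3, and 126 and 58.3 CPM in stipes 1 and 4. They took 9.09%, 6.97% and 6.85% of all reads in the young fruiting bodies and 1.41% and 0.63% in the stipes. Stipe 4 was the lower of the stipes on both measures. The 414 genes at 300 CPM or more that did not fall had median levels of 457 to 575 CPM in young fruiting bodies and 484 and 439 CPM in stipes. The 99 genes were short, with a median model length of 731 bases (quartiles 550 and 943), against 1409 bases for the abundant genes that did not fall and 1196 bases for all tested genes. Of the 99, 88 were shorter than the median tested gene and 96 had at least 95% of their reads unique to 1 model.

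The 99 genes also differed between libraries outside the comparison, and the abundant genes that fell less did so in the same direction. They took 0.47% to 1.11% of reads in the 3 primordium libraries, 4.45% to 6.82% in the 3 cap libraries and 3.5% to 4.47% in the 3 mycelium libraries. The stipe libraries overlapped the primordia and lay below every cap, mycelium and young fruiting body library. Cap against primordium is a comparison that uses neither the stipe nor the young fruiting body libraries in its means. In it, 91 of the 99 genes were higher in cap and 0 lower (edgeR adjusted p under 0.05, at least 2-fold), with a median log2 difference of 2.05. The background for that test was 22.1% of all tested genes higher in cap and 15.8% lower. Because the spread of each gene came from all 14 libraries, the share called is not independent of how the 99 genes were chosen. Of the 56 abundant genes that fell less than 4-fold, 20 were higher in cap and 0 lower, with a median log2 difference of 0.84. These 56 took 0.59% to 1.0% of primordium reads and 2.0% to 2.57% of cap reads. Of the 414 abundant genes that did not fall in stipe, 35 were higher in cap and 211 lower. Scaling by library total alone gave 97 higher and 0 lower for the 99 genes, and 82 higher and 118 lower for the 414.

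Gene length went along with the fall among abundant genes more widely. When the 5187 genes of highest mean level over all 14 libraries were cut by length into 3 bins of 1729 genes, 360 genes (20.8%) fell in the bin of shortest genes, 157 (9.08%) in the middle bin and 68 (3.93%) in the bin of longest genes. The risen genes ran the other way, at 23 (1.33%), 39 (2.26%) and 55 (3.18%). The median log2 change was -0.59, -0.17 and -0.02 in these bins. This cut by length within the most abundant genes was chosen after the data were seen. The ranking by level also used the compared libraries, so the counts describe these data and carry no test. The short abundant genes, picked by level and length and not singly by their change, had a median log2 level of -0.58 and -0.49 in stipes 1 and 4. These values are relative to the mean of the young fruiting bodies. In the young fruiting bodies themselves this median was 0.09, 0.19 and -0.28, so replicate 3 lay nearest to the stipes. The caps stood at -0.76, -0.59 and -0.20, and overlapped both groups. The gradient with length was not particular to the stipe. In cap against young fruiting body the median log2 changes of the bins were -0.52, -0.29 and -0.11. There 4.74%, 5.15% and 2.43% of the genes fell. The longest genes stood at 0.07, -0.13 and -0.25 in caps 1, 2 and 3, so cap 3 lacked the gradient. In mycelia the shortest stood at -0.53, -0.68 and -0.48 and the longest at -0.41, -0.70 and -0.56.

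**Figure D2:**
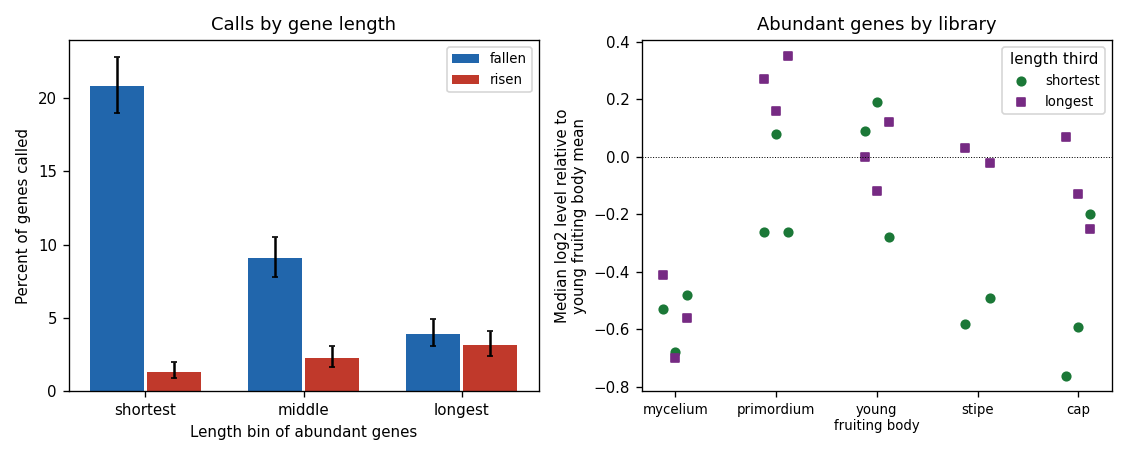
Left, percent of abundant genes that fell or rose in stipe by length bin (1729 genes each; bars from 0, error lines are 95% Wilson intervals over genes and cover counting error only). Right, median log2 level of the shortest and longest abundant genes in each library relative to the young fruiting body mean; the shortest genes lie at -0.58 and -0.49 in the stipes while the longest lie at 0.03 and -0.02.

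Over all tested genes, without regard to level, 6.54% of the shortest, 6.07% of the middle and 3.84% of the longest genes fell, and 0.791%, 1.45% and 2.6% rose. By level, 0.0771% of the lowest bin, 5.09% of the middle bin and 11.3% of the highest bin fell. In the lowest bin, below 6.42 CPM on average, the median log2 change was 0.38, although 13 genes there rose and 4 fell, while in the highest bin the median was -0.22.

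The fallen genes as a whole made up a large part of the messenger pool. They took 19.68%, 15.03% and 16.43% of the reads of young fruiting bodies 1, 2 and 3, and 5.49% and 3.74% of stipes 1 and 4. The reads were spread over many genes, with 97 of the 853 holding 50 percent of the list's reads in the young fruiting body. The risen genes took 1.14%, 1.42% and 1.58% of young fruiting body reads and 4.67% and 5.76% of stipe reads. They were more concentrated, with 18 of the 251 holding 50 percent of the list's reads in the stipe and the top 10 holding 39.5%. Per length, as TPM, the fallen genes took 19.7% to 25.26% in young fruiting bodies and 7.04% and 4.57% in stipes.

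**Figure D3:**
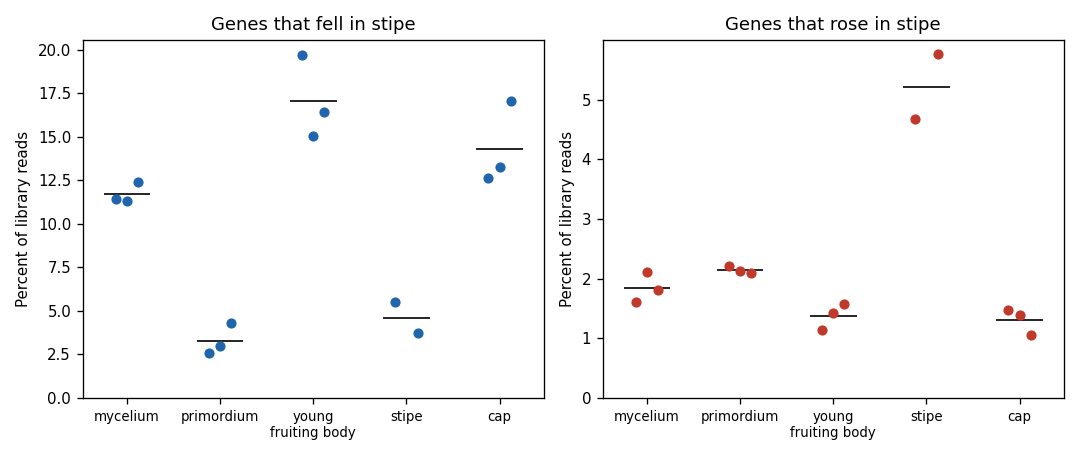
Percent of each library's reads on the 853 genes that fell (left) and the 251 that rose (right) in stipe, by group; points are libraries, lines are group means, and the axes start at 0. Fallen genes took 15.03% to 19.68% of young fruiting body reads but 5.49% and 3.74% of stipe reads, with caps (12.65% to 17.05%) near the former and primordia (2.58% to 4.29%) near the latter.

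In cap and primordium, whose means did not enter the choice of genes, most fallen genes were higher in cap, and the risen list differed less clearly. The spread of each gene was taken from all 14 libraries, so the choice favours genes of low spread in these groups too. That may raise the share called, so nothing is read from its distance to the share of all tested genes. The fallen genes took 12.65% to 17.05% of cap reads and 2.58% to 4.29% of primordium reads. In the test of cap against primordium 536 fallen genes (62.8%) were higher in cap and 10 (1.17%) were lower, beside 22.1% and 15.8% of all tested genes. Their median log2 difference was 1.36, which is 1.11 above the median of all tested genes. Of the risen genes 18 (7.17%) were higher in cap and 101 (40.2%) were lower, with a median 1.03 below that of all tested genes (-0.78 against 0.25). Scaling by library total moved the median of all genes in this comparison to 1.13 and that of the risen genes to 0.12. Relative to all genes the lists then stood at 1.09 and -1.01. With that scaling 52 risen genes were lower in cap and 44 higher, where 6.97% and 41.0% of all tested genes were.

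**Figure D4:**
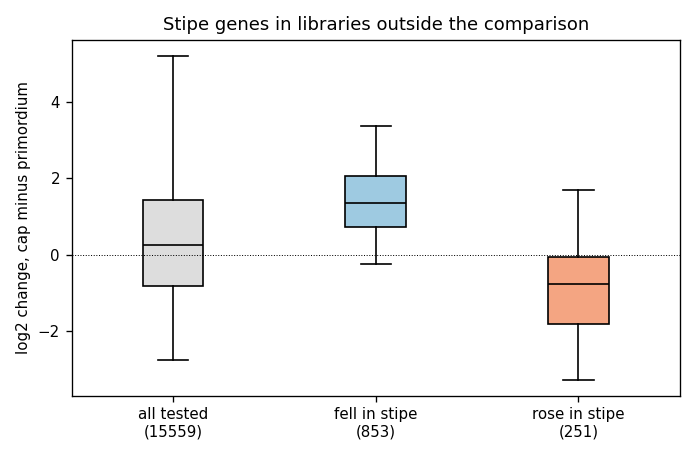
Log2 change from primordium to cap for all tested genes and for the genes that fell or rose in stipe. The group means use no stipe or young fruiting body library, while scaling and spread came from all 14 libraries. Boxes give quartiles and median, and whiskers the 5th to 95th percentile. The medians are 0.25, 1.36 and -0.78.

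Cap and stipe share the young fruiting body libraries as their reference, and the lists were chosen in stipe, so their values are set side by side without a test. The fallen genes had a median log2 change of -1.58 in stipe and -0.41 in cap, and the risen genes 1.62 in stipe and 0.01 in cap. In cap 30 of the fallen genes fell and 7 rose, and 4 of the risen genes rose and 16 fell, where 1.77% of all tested genes fell and 1.34% rose. Among the 5 groups, the highest mean level of the fallen genes was in the young fruiting body for 570, in cap for 166, in mycelium for 94 and in primordium for 23. Scaled by library total these were 372, 323, 154 and 4, so the order of young fruiting body and cap came closer to even. The risen genes had their highest mean in stipe for 164, in primordium for 43, in mycelium for 41 and in cap for 3. Scaled by library total these were 168, 20, 58 and 5, which turns the order of primordium and mycelium.

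The 2 genes with the largest rise among those passing a rule on level, overlap and unique reads were absent or nearly absent from young fruiting bodies. Gene model 809873 (1647 bases) had 0 reads in each of the 3 young fruiting bodies and 1327 and 233 reads in stipes 1 and 4, which is 34.2 and 10.4 CPM. Over the group 0 reads allow up to 0.0253 CPM by library total, taking 3 reads as the floor. Against that floor the level of 27.5 CPM, pooled over both stipes by library total, was at least 1083-fold higher. Stipe 1 gave 1327 of the 1560 pooled reads, so the bound is not one for each stipe. The edgeR fit, which does not test this bound, gave an adjusted p of 0.0394. The gene also varied between libraries of the same group elsewhere, with 0, 209 and 590 reads in caps 2, 1 and 3, and 0, 1 and 59 reads in primordia 3, 2 and 1. Primordia 1 and 3 carry the same height label, while primordium 2 was smaller. In mycelium the gene stood at 20.2 to 34.4 CPM. Its call was lost when any 1 of the 5 libraries was left out and in the fit of only the 11 field libraries (adjusted p = 0.0882), with adjusted p-values of 0.000255 to 0.189 over 15 alternatives.

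Gene model 792822 (535 bases) had 2 reads in young fruiting body 1 and 0 in the other libraries of that group, against 5149 and 1774 reads in stipes 1 and 4, or 133 and 78.9 CPM. The ratio of pooled read shares was 7210, with a 95% exact interval of 1995 to 59550 that covers counting error only (edgeR adjusted p = 0.0362). It too was on in some libraries of a group and off in others. Cap 1 had 24.7 CPM where caps 2 and 3 had 0 and 1 reads, and primordia 2 and 3 had 11.7 and 79.9 CPM where primordium 1 had 0 reads. Of these, primordia 1 and 3 carry the same height label. The mycelia held 85.8 to 126 CPM. Leaving out any 1 of the 5 libraries ended this call as well, as did the fit of only the 11 field libraries (adjusted p = 0.0771) and limma-voom (adjusted p = 0.0533; 0.000399 to 0.188 over 15 alternatives).

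**Figure D5:**
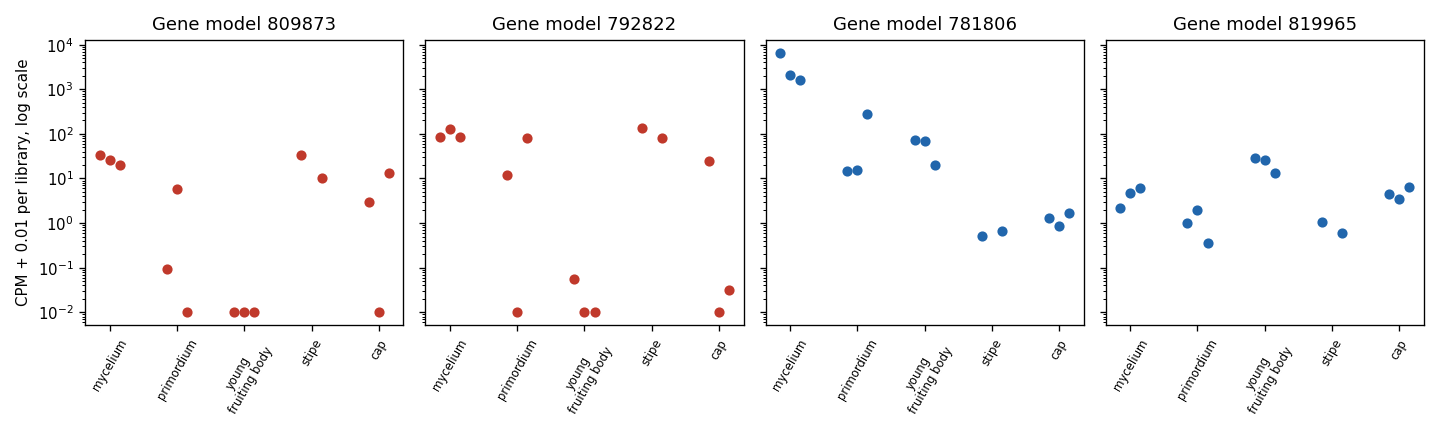
Level of the 2 genes with the largest rise (red) and the 2 with the largest fall (blue) in every library, in CPM plus 0.01 on a log axis, by group. Both risen genes are at or near 0 reads in all young fruiting bodies and also in single cap and primordium libraries, while both fallen genes are low in both stipes.

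Presence in some libraries of a group and absence from others was counted for all strongly changed genes. Of the 21 genes that rose 8-fold or more, 7 had no more than 3 reads in each young fruiting body. In 5 of the 21 (23.8%) at least 1 cap or primordium library had no more than 3 reads while another of the same group had 1 CPM or more. Over the whole lists this held for 5 of the 251 risen genes (1.99%) and 0 of the 853 fallen genes, and for 11.2% of all tested genes. Among the 21 genes, all 5 varied in this way among the caps. Of the 5, 4 did so also among the primordia, which were of unlike height. The test takes 1 spread per gene from all 14 libraries, which disfavours calling genes of this kind, so nothing is read from the distance to 11.2%. At the level of 10 CPM by library total, 2 genes were read in both stipes with 0 reads in all young fruiting bodies, and 0 genes showed the reverse.

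The 2 genes with the largest fall were low but present in the stipe. Gene model 781806 (971 bases) stood at 72.3, 68.9 and 20.1 CPM in young fruiting bodies 1, 2 and 3 and at 0.516 and 0.667 CPM in stipes 1 and 4. Its fitted log2 change was -6.51 with an SE of 1.51 (edgeR adjusted p = 0.0236), but limma-voom gave an adjusted p of 0.112 (3.78e-08 to 0.255 over 15 alternatives), and the call was lost without young fruiting body replicate 1 or either stipe. It was also low in caps, at 0.855 to 1.69 CPM (log2 change from young fruiting body -5.38, edgeR adjusted p = 0.0281), and far higher in mycelium, at 1590 to 6450 CPM. Gene model 819965 (1272 bases) stood at 29.5, 25.4 and 13.5 CPM in the young fruiting bodies and at 1.06 and 0.578 CPM in the stipes, for a fitted log2 change of -4.78 with an SE of 0.80 (edgeR adjusted p = 0.00706). This call was lost only without stipe replicate 4 (adjusted p = 0.173; 3.91e-10 to 0.173 over 15 alternatives). Its caps lay between, at 3.39 to 6.48 CPM, with a log2 change from young fruiting body of -2.24 that did not pass (edgeR adjusted p = 0.0611). In primordia it stood at 0.356 to 1.96 CPM, and the step from primordium to cap passed with a log2 difference of 2.12 (edgeR adjusted p = 0.0145).

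Ranked by mean RPKM, that is reads per length and library total, 57 of the 100 most abundant genes of the stipe were also among the 100 of the young fruiting body. Of the 100 of the young fruiting body 35 fell and 0 rose, while of the 100 of the stipe 3 rose and 0 fell, beside 5.48% fallen and 1.61% risen of all tested genes. Each set was picked by its level in a compared group, which favours falls in the former and rises in the latter. The 100 genes with most reads took 26.9% and 29.8% of reads in stipes 1 and 4 and 23.8%, 24.6% and 20.8% in young fruiting bodies 1 to 3. The groups did not overlap, with a two-sided exact permutation p of 0.1, the smallest that 10 splits allow (adjusted p = 0.2 over 6 such measures). Each stipe library had more genes at 1 CPM than any young fruiting body library. After thinning to the total of stipe 4, the smallest of the 5 libraries, 13804 and 13599 genes reached 1 CPM in stipes 1 and 4, against 13151, 12970 and 13172 in young fruiting bodies 1 to 3, again with an exact permutation p of 0.1 (adjusted p = 0.2). Genes at 100 CPM or more numbered 2033 and 1849 in the stipes and 2014 to 2248 in the young fruiting bodies, which overlapped.

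The stipe libraries differed in the size of the change. The lists were called on these libraries, so the direction in each stipe follows from the choice of genes. Relative to the mean of the young fruiting bodies, the median log2 level of the fallen genes was -1.42 in stipe 1 and -1.68 in stipe 4, and that of the risen genes was 1.37 and 1.74. The number of calls rested on single libraries. Leaving out stipe replicate 4, the edgeR count was 0 (1819 genes had an unadjusted p under 0.05), where limma-voom called 198 and DESeq2 627. In that edgeR fit the genes of the lists had median log2 changes of 1.38 (risen) and -1.48 (fallen), whose signs the choice of genes fixes. When stipe replicate 1 was dropped edgeR called 359 genes, of which 94 rose and 265 fell. When young fruiting body replicate 1 was dropped it called 333, with only 27 rises against 306 falls. The 99 abundant fallen genes were called in 87 cases without stipe replicate 1 and in 88 without young fruiting body replicate 1. Without stipe replicate 4, 0 of them were called by edgeR, 73 by limma-voom and 97 by DESeq2. With all libraries, DESeq2 called 681 risen (4.38%) and 1199 fallen genes (7.71%), limma-voom 522 (3.35%) and 1102 (7.08%), and 230 risen and 791 fallen genes were called by all 3 tools. Scaling by library total gave 268 risen (1.72%) and 518 fallen genes (3.33%), with the median log2 change of the tested genes at 0.14 in place of 0.001. Of the called genes, 29 fallen and 5 risen had under 95% unique reads, and their levels are uncertain.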

How the data were processed

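Per the file headers, the authors deposited 1 table per library that lists 17139 Ricmel1 gene models, each its own mapping reference, with total and unique read counts (not normalized), RPKM (reads per length and library total), TPM and model length. The authors' deposited matrix holds log2 RPKM. R 3.0.2, edgeR 3.4.2 and limma 3.18.13 stand in the submitters' processing notes. Mapper and build: not given in the sources used here. Per the labels the kit was TruSeq v2, which leaves strand unmarked.

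Total reads were tested by quasi-likelihood in edgeR 4.0.16 (R 4.3.3) after TMM and filterByExpr, with Benjamini-Hochberg adjustment over 15559 genes; 99.61% or more of each library's reads passed the filter. The model held 5 groups and 14 libraries, leaving 9 residual degrees of freedom, so the spread of the stipes is borrowed in part from other groups. A call needed an adjusted p under 0.05 and a 2-fold change. SE is the log2 change over the root of F. Per-library medians used log2(CPM + 0.5). Alternatives used DESeq2 1.42.0 and limma 3.58.1 (voom, and limma-trend on log2(RPKM + 1) or on the authors' matrix). Scripts were tested on simulated data.

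By rule, the named genes were the 2 largest rises and the 2 largest falls among called genes without overlap, at a mean of 10 CPM or more in the higher group and with 95% or more unique reads. Lists and rules were chosen with earlier results of these data known, and the 300 CPM group after its values were seen.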

Additional observations from a re-analysis of the deposited data

Results flagged for a closer look

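Signal was found in gene models that the low-count filter left out of the test. In young fruiting body replicate 1, 2 such models reached 10 CPM although no other library of the series reached 1 CPM, the higher of them with 1279 reads; 0 such models were found in each of the other 4 libraries of the comparison.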

How the results depend on the processing

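Against 1104 called genes, DESeq2 called 1880, the fit of only the 11 field libraries 662 (151 risen, 511 fallen) and a 4-fold threshold 284; the cause was not tested, except that a higher threshold leaves fewer genes by construction. With each library left out the count ran from 0 to 1176, for limma-voom (1624) from 198 to 1791 and for DESeq2 (1880) from 627 to 2043. With a lone stipe library, the spread of the other groups was taken to hold for it. Risen genes were 22.7% of calls, and 34.1% with library total only, 36.2% with DESeq2 and 38.5% with limma-trend on log2(RPKM + 1), but 8.11% without young fruiting body replicate 1, where risen calls numbered 27. No paired analysis was possible because the labels do not link stipe libraries to young fruiting body libraries. Replicate number 1 occurs in both groups but is not said to mark a pair.

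As TPM, the risen genes took 0.82% of young fruiting body and 3.4% of stipe, and the fallen genes 22.39% of young fruiting body. At 5 CPM, 5 genes were off in young fruiting body. With 5 length bins 0.578% of the shortest genes rose. Within the genes of highest level, chosen after seeing the data, 1.33% of the shortest rose and 20.8% fell, and 3.18% of the longest rose. With library total only, 5.05% of the shortest and 1.5% of the longest genes fell. In the lowest level bin 0.135% then rose and 0.0193% fell, and in the highest 2.87% rose and 7.52% fell. With the same scaling 52 of the risen genes were lower in cap than primordium, and their median turned to 0.12. The named genes lost the call in 18 of 60 alternatives.

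Depth limits what can be said of low genes: 3 reads, the floor for a count of 0, are 0.139 CPM in stipe 4 and 0.0672 CPM in young fruiting body 1.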

Other observations

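The caps differed among themselves in the genes that fell in stipe. Set against the mean of the young fruiting bodies, the median log2 level of these 853 genes was -0.59 and -0.52 in caps 1 and 2 and -0.09 in cap 3. The 99 abundant short genes took 4.45% and 4.91% of reads in caps 1 and 2 and 6.82% in cap 3, beside 6.85% in young fruiting body 3. Young fruiting body 1 stood at the other end, with 797 of the 853 genes above its group's mean, against 285 and 333 in replicates 2 and 3. Over all tested genes its median log2 level against that mean was 0.02. The 853 genes were chosen with this replicate in the higher group, and 306 genes were called fallen when it was dropped. The choice therefore favours a high count in it, and nothing further is read from the 797.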
